A study of Mus musculus with 4 samples.

Results

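The genes described here are markers of the neuron types of the cerebellum. They were chosen by gene name: 16 genes of Purkinje cells, 15 of granule cells and other glutamatergic neurons, 8 of GABAergic interneurons and 1 of unipolar brush cells, 40 genes in all of the 28632 gene names on the array. Under the array's own gene names 37 of the 40 were found, on 117 spots of 63 probes. The other 3, Ppp1r17, Rbfox3 and Tfap2b, were on the array under the older names Gsbs, D11Bwg0517e and Tcfap2b and were matched through their transcript accessions, which brought the total to 123 spots and 69 probes. Of the 40 genes, 39 passed the filter on dim probes, and each of these 39 was well above background in both channels of all 4 arrays. The exception was Pax2, a transcription factor of GABAergic interneuron precursors, which was well above background in 2 mutant channels and in 0 control channels and was not tested.

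Cerebellum RNA came from mice at postnatal day 30 on a mixed background. Mutants were mGfap-Cre; Dicer flox/flox, with 2 floxed alleles of the gene for the enzyme that cuts microRNA precursors, and controls were mGfap-Cre; Dicer +/flox littermates, with the same Cre driven by the mouse Gfap promoter (line 73.12) and 1 floxed allele. Each of 4 independent littermate pairs was compared on 1 two-colour Agilent array of 60-base probes, from 500 ng of total RNA a channel, with the mutant in Cy5 in pairs 1 and 3 and in Cy3 in pairs 2 and 4. The controls therefore also lacked an intact copy of 1 Dicer allele wherever Cre acted, and no group without Cre was part of the comparison. Between 26291 and 28907 of 41174 probes a channel were well above background and no spot was saturated. Dicer1 itself had a log2 ratio of 0.04 ± 0.22 (SD, n = 4 pairs, adjusted p = 0.947), and since the position of its probe relative to the floxed part was not established and other cells of the tissue also carry the transcript, this value does not measure the deletion.

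The cerebellar cortex is built around Purkinje cells, large GABAergic neurons whose axons are its only output. Granule cells, the most numerous neurons of the brain, excite them through parallel fibres, and GABAergic interneurons (basket, stellate and Golgi cells) restrain both. Unipolar brush cells are small excitatory neurons of the granular layer. Several of the markers are known from ataxic mice: loss of Rora function gives the staggerer mouse, loss of Reln the reeler mouse and loss of Car8 the waddles mouse. The Gfap promoter drives Cre in astroglia, including Bergmann glia, which wrap Purkinje cell dendrites, and the title of the study asks about dysfunction and degeneration of neurons. The comparison here is whether transcripts that mark each neuron type differed between mutant and control, and how large a difference would have had to be to be seen. In RNA of whole tissue, fewer cells of a type and less RNA per cell cannot be told apart.

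None of the neuron type markers differed detectably between mutant and control cerebellum. Among the 39 tested genes 0 were called at an adjusted p under 0.05 (limma), and 0 had an unadjusted p under 0.05. Over all 18025 genes tested, 186 were called, or 1.03 percent of them. That total was 82 with outlier spots kept in the background fit, and 57, 267, 91 and 336 without pairs 1, 2, 3 and 4. Of the 186, 106 (0.588 percent of all genes) were higher and 80 (0.444 percent) were lower in the mutant. Among all genes tested, 1692 (9.39 percent) had an unadjusted p under 0.05. The log2 ratios of the markers, mutant over control, ran from -0.32 for Slc17a6 to 0.18 for Zic1, with 16 above 0, 23 below and a median of -0.01, against 0.00 over all genes. Their median size without sign was 0.059, beside 0.061 for all genes. The smallest adjusted p was 0.590, for Slc17a7.

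The precision behind that result varied from gene to gene. For a gene measured on all 4 arrays, a difference was called when it exceeded 7.43 standard errors, the threshold set by the adjustment over all genes. For the median marker that smallest callable log2 ratio was 0.55, a 1.47-fold difference, and a true difference of 0.68, or 1.60-fold, would have been called with 80 percent power. The median over all genes was 0.52 (1.43-fold), and the smallest log2 ratio called anywhere on the arrays had a size of 0.44. The 95 percent interval of the ratio, which is narrower than the range that escapes a call because it is not adjusted for the number of genes, spanned 0 for all 39 markers. It lay inside a 1.3-fold difference in either direction for 32 of them, inside 1.5-fold for 37 and inside 2-fold for 38. Eomes stayed inside 1.5-fold by a small margin, from 0.677-fold to 1.09-fold, and the markers outside 1.5-fold were Slc17a6, from 0.624-fold to 1.03-fold, and Nrgn, from 0.320-fold to 3.45-fold.

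**Figure D1:**
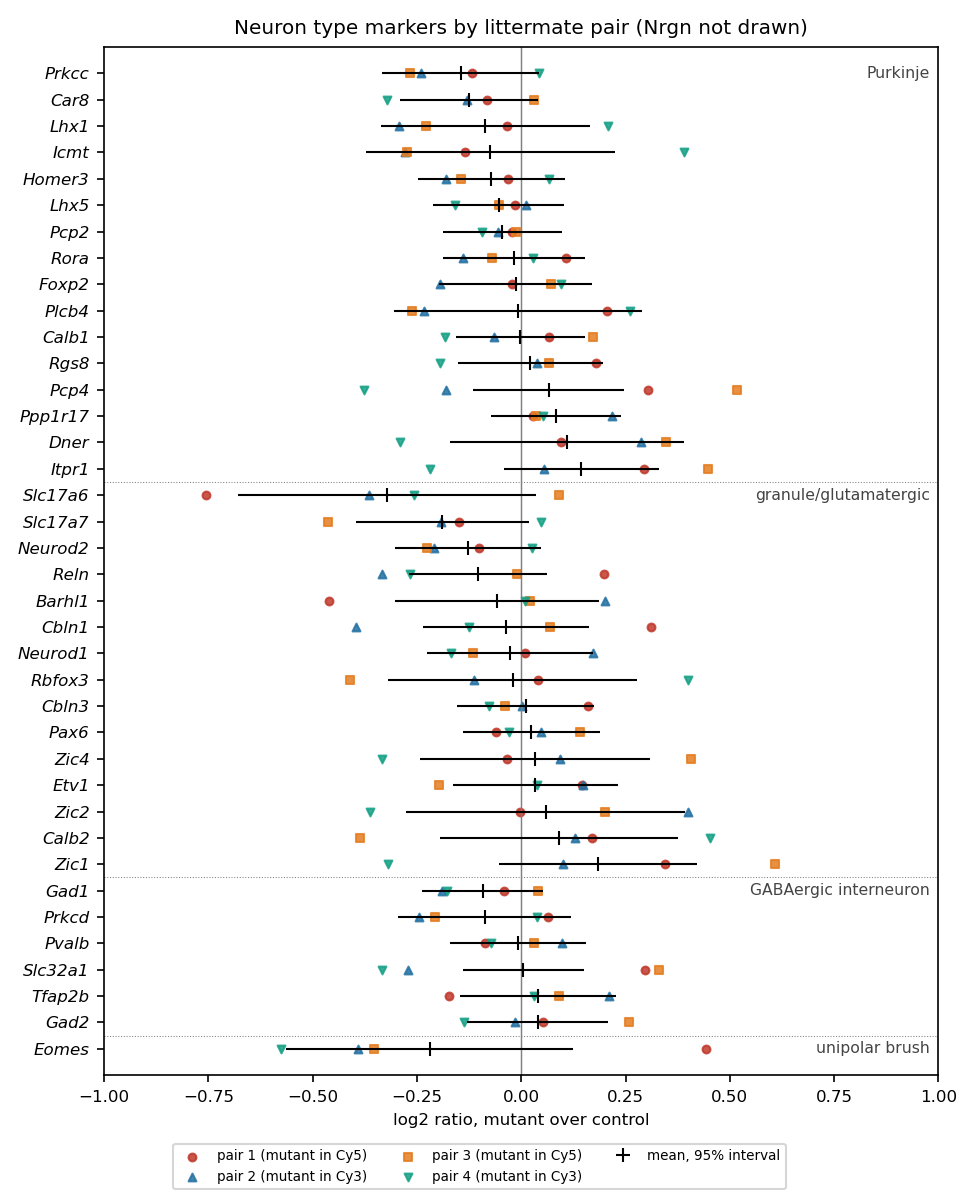
Log2 ratio of mutant over control (x axis) for 38 tested neuron type markers (y axis, grouped by cell type and ordered by mean). Coloured points are the 4 littermate pairs, the black tick is the mean and the black line its 95 percent interval from limma. All 38 intervals cross 0, and the widest belong to Slc17a6 and Eomes. Nrgn, whose pairs ran from -2.75 to 1.68, is not drawn.

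Purkinje cell markers gave a median log2 ratio of -0.02, with 5 of 16 above 0 and 11 below. The medians of the class in pairs 1 to 4 were 0.01, -0.13, 0.01 and -0.03. Pair 2 was the lowest, and the others lay close to 0.

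Calb1, the calcium buffer calbindin that is the usual stain for these cells, had log2 ratios of 0.07, -0.06, 0.17 and -0.18 in pairs 1 to 4, with a mean of -0.00 ± 0.15 (SD, n = 4). The 95 percent interval ran from -0.16 to 0.15, and a difference of 0.45 (1.37-fold) would have been called. Itpr1, the receptor that releases calcium from internal stores, gave 0.29, 0.05, 0.45 and -0.22, with a mean of 0.14 ± 0.29 (adjusted p = 0.679). Its first 3 pairs were higher in the mutant and pair 4 was lower. Car8, a carbonic anhydrase-related protein that binds the same receptor, gave -0.08, -0.13, 0.03 and -0.32, with a mean of -0.13 ± 0.15 (adjusted p = 0.692). Neither gene was called, and the second probe of Itpr1 had a mean of -0.00 ± 0.31.

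Among signalling genes of Purkinje cells, Prkcc, protein kinase C gamma, had the smallest p of the class, with -0.12, -0.24, -0.27 and 0.04 in the 4 pairs and a mean of -0.15 ± 0.14 (adjusted p = 0.679). It was lower in 3 of 4 pairs, and a log2 difference of 0.55 would have been called. Ppp1r17, a phosphatase inhibitor that is a substrate of cGMP-dependent kinase, gave 0.03, 0.22, 0.04 and 0.05, with a mean of 0.08 ± 0.09 (adjusted p = 0.804), and was higher in all 4 pairs. Pcp2, a modulator of G protein signalling found almost only in Purkinje cells and retinal bipolar cells, gave -0.02, -0.05, -0.01 and -0.09, with a mean of -0.05 ± 0.04 (adjusted p = 0.893), and was lower in all 4 pairs. Its second probe gave -0.11, 0.10, -0.04 and 0.05, so the single sign belongs to the probe that stands for the gene. Pcp2 had the narrowest limit of all markers: a log2 difference of 0.42 (1.34-fold) would have been called, and its interval ran from 0.877-fold to 1.07-fold. Ppp1r17 and Pcp2 were the only 2 markers of 39 (5.13 percent) with 1 sign in all 4 pairs, beside 15.1 percent of all genes.

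The remaining Purkinje markers are given by their means. Homer3, a postsynaptic scaffold, was at -0.07 ± 0.11, Plcb4, the phospholipase downstream of metabotropic glutamate receptors, at -0.01 ± 0.28, and Rgs8, a regulator of G protein signalling, at 0.02 ± 0.16. Dner, a surface ligand that Purkinje cells present to Bergmann glia, was at 0.11 ± 0.29, and Pcp4, a calmodulin-binding peptide, at 0.07 ± 0.41. The transcription factors Rora (-0.02 ± 0.11), Foxp2 (-0.01 ± 0.13), Lhx1 (-0.09 ± 0.22) and Lhx5 (-0.05 ± 0.07) lay within 0.09 of 0. This holds for the probes that stand for the genes. The other probe of Foxp2 was at 0.10 ± 0.19 and that of Lhx1 at -0.00 ± 0.15. Rora had further probes at 0.01 ± 0.10 and 0.04 ± 0.48. Icmt, a methyltransferase that acts on prenylated proteins, had the widest limit of the class, at 0.88 (1.84-fold). Its pairs were -0.14, -0.28, -0.27 and 0.39, with pair 4 opposite to the others and a mean of -0.07 ± 0.32.

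Markers of granule cells and other glutamatergic neurons gave a median log2 ratio of -0.02, with 7 of 15 above 0 and 8 below. The class medians in pairs 1 to 4 were 0.01, 0.05, -0.01 and -0.08. The median limit for a call was 0.61 (1.53-fold), compared with 0.53 (1.44-fold) for Purkinje markers and 0.50 (1.41-fold) for interneuron markers.

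The vesicular glutamate transporters had the smallest p values among all markers. Slc17a7 (VGLUT1), which loads glutamate into the vesicles of parallel fibres, gave -0.15, -0.19, -0.46 and 0.05 in pairs 1 to 4, with a mean of -0.19 ± 0.21 (adjusted p = 0.590) and an interval from 0.760-fold to 1.01-fold. It was lower in 3 of 4 pairs, and a log2 difference of 0.61 would have been called. Slc17a6 (VGLUT2), the transporter of climbing fibres and of neurons in the deep nuclei, brainstem and midbrain, gave -0.76, -0.36, 0.09 and -0.26, with a mean of -0.32 ± 0.35 (adjusted p = 0.603). Pair 1 was the most negative and pair 3 was on the other side of 0. Its limit was 1.06 (2.08-fold), the widest of the class. Fitted with the dye term, the ratio was -0.11 without pair 1 and -0.53 without pair 3 (adjusted p = 0.175, limma).

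The transcription factors of the granule lineage did not differ detectably. Zic1 had the largest positive ratio of all markers, with 0.35, 0.10, 0.61 and -0.32 in the 4 pairs and a mean of 0.18 ± 0.39 (adjusted p = 0.680). Its 3 positive pairs and its 1 negative pair spanned nearly 1 log2 unit. Neurod2, a neuronal differentiation factor, gave -0.10, -0.21, -0.23 and 0.03, with a mean of -0.13 ± 0.12 (adjusted p = 0.705). Neurod1 was at -0.03 ± 0.15, Zic2 at 0.06 ± 0.33, Zic4 at 0.03 ± 0.31, Barhl1 at -0.06 ± 0.28 and Etv1 at 0.03 ± 0.16. Pax6, which is needed in granule cell precursors, gave -0.06, 0.05, 0.14 and -0.03, with a mean of 0.02 ± 0.09. With a limit of 0.48 (1.40-fold), Pax6 and Cbln3 had the narrowest limits among granule markers, each for the probe that stands for the gene.

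Among genes of granule cell synapses and identity, Cbln1, the secreted organiser of the synapse between parallel fibre and Purkinje cell, was at -0.04 ± 0.30. Cbln3, which assembles with it, gave 0.16, 0.00, -0.04 and -0.08 in pairs 1 to 4 and a mean of 0.01 ± 0.10. Its second probe gave 0.10, -0.41, -0.51 and 0.26 and a mean of -0.14 ± 0.38, the largest gap between probe means of all markers. Reln, the extracellular protein that granule cells secrete, was at -0.10 ± 0.24, and Rbfox3, the NeuN antigen, at -0.02 ± 0.34. Calb2 (calretinin), a calcium buffer of granule and unipolar brush cells, gave 0.17, 0.13, -0.39 and 0.45, with a mean of 0.09 ± 0.35 (adjusted p = 0.896). Pair 3 lay opposite to the other 3 pairs.

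Calb2 allowed a check of whether such a pattern over pairs belongs to 1 probe, since it was read by 3 probes that share no bases. All 3 lie on the minus strand of chromosome 8 (build mm9, per the file headers), and their sequences, as deposited with the arrays, are shown because they read separate stretches of 1 transcript. The first spans 60 bases of the genome and the others 708 and 2511, longer than the 60-base probes, so those 2 cross an intron.
Calb2 probe A_52_P556433, chr8:112678555-112678614: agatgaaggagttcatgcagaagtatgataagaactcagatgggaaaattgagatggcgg
Calb2 probe A_52_P571780, chr8:112671252-112671959: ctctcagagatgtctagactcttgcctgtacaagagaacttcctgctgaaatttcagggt
Calb2 probe A_51_P311436, chr8:112667073-112669583: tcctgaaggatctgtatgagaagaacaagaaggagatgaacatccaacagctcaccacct

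The probes gave log2 ratios in pairs 1 to 4 of 0.24, 0.03, -0.31 and 0.34 for the first. The values were 0.17, 0.13, -0.39 and 0.45 for the second, which stands for the gene, and 0.18, 0.17, -0.27 and 0.34 for the third. Within any pair the 3 probes lay at most 0.13 apart, while the pairs of the second probe differed by more than 0.8, so the spread over pairs was larger than the spread over probes. Of the 23 markers with more than 1 tested probe, 9 had probes whose mean ratios differed in sign, in each case by no more than 0.15. Agreement within single pairs was not general.

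Car8 and Slc17a6 show the other case, a pair in which 2 probes of 1 gene disagree. The probes of Car8 lie on chromosome 4 (minus strand) and those of Slc17a6 on chromosome 7 (plus strand), and the first 30 bases of each are given to identify which stretch was read.
Car8 probe A_52_P625118, chr4:8072704-8072763: tggcatatctgaatgtatggcttctaagga
Car8 probe A_51_P392005, chr4:8070545-8070604: atctgattcagaatagaaacattactgtgt
Slc17a6 probe A_52_P8197, chr7:58926067-58926126: taagtgcaaagcataaaacctcctgtgtgt
Slc17a6 probe A_51_P174996, chr7:58924553-58924612: ggatgaagaaacgggggacatcactcagaa

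For Car8 the second probe gave -0.72 in pair 1, where the probe that stands for the gene gave -0.08, and 0.01, 0.00 and -0.13 in pairs 2 to 4. Its mean of -0.21 ± 0.34 rested on that pair. For Slc17a6 the second probe gave -0.51, -0.18, -0.51 and 0.22, with a mean of -0.25 ± 0.35, so its lowest pairs were 1 and 3 where the other probe was lowest in pairs 1 and 2. Both probes of Slc17a6 were negative in pair 1. Of the markers with several probes, the largest gap within 1 pair was 0.66, for Zic4.

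GABAergic interneuron markers gave a median log2 ratio of 0.01 over the 7 tested genes, with 4 above 0 and 3 below and medians of -0.04, -0.01, 0.09 and -0.07 in pairs 1 to 4. The genes above 0 include Nrgn, which was listed in this class and is described below. The enzymes that make GABA are expressed by Purkinje cells too. Gad1 gave -0.04, -0.19, 0.04 and -0.18, with a mean of -0.09 ± 0.11 (adjusted p = 0.757) and a limit of 0.43 (1.35-fold). Gad2 gave 0.05, -0.01, 0.26 and -0.14, with a mean of 0.04 ± 0.17 (adjusted p = 0.930). The second probe of Gad2 gave 0.05, -0.56, 0.13 and 0.09, with a mean of -0.07 ± 0.32, so its 2 probes differed in the sign of the mean. Pvalb, the calcium buffer parvalbumin of basket, stellate and Purkinje cells, was at -0.01 ± 0.09 with a limit of 0.48 (1.39-fold).

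Prkcd, protein kinase C delta, gave 0.06, -0.25, -0.21 and 0.04 in pairs 1 to 4, with a mean of -0.09 ± 0.16 (adjusted p = 0.853). Tfap2b, a transcription factor of the GABAergic lineage, gave -0.17, 0.21, 0.09 and 0.03, with a mean of 0.04 ± 0.16 (adjusted p = 0.937). Neither had 1 direction in all pairs. Slc32a1, the vesicular GABA transporter, gave 0.30, -0.27, 0.33 and -0.33, with a mean of 0.01 ± 0.36 (adjusted p = 0.989). Its 2 positive pairs were those with the mutant in Cy5 and its 2 negative pairs those with the mutant in Cy3, and once the dye term took up that difference its limit for a call was 0.43 (1.34-fold), the narrowest of the class. Slc32a1 shows 1 reason why a spread over pairs and a limit can differ here: the SD holds the dye effect and the standard error does not. The standard error is also moderated by limma toward a value shared by all genes. The smallest limit of any gene tested was 0.42, close to that of Slc32a1.

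The dye effect was larger than the genotype effect for 25 of the 39 markers (64.1 percent), compared with 53.3 percent of all genes. The largest dye term after that of Nrgn was 0.34, for Pcp4, whose pairs were 0.30, -0.18, 0.52 and -0.38. In 5 markers (12.8 percent, beside 18.2 percent of all genes) both pairs of 1 dye order were positive and both pairs of the other negative: Calb1, Pcp4, Cbln1, Gad2 and Slc32a1. For Calb1 the mean was 0.12 with the mutant in Cy5 and -0.12 with the mutant in Cy3. The swap balanced dye over genotype, so these differences do not enter the mean ratio.

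**Figure D2:**
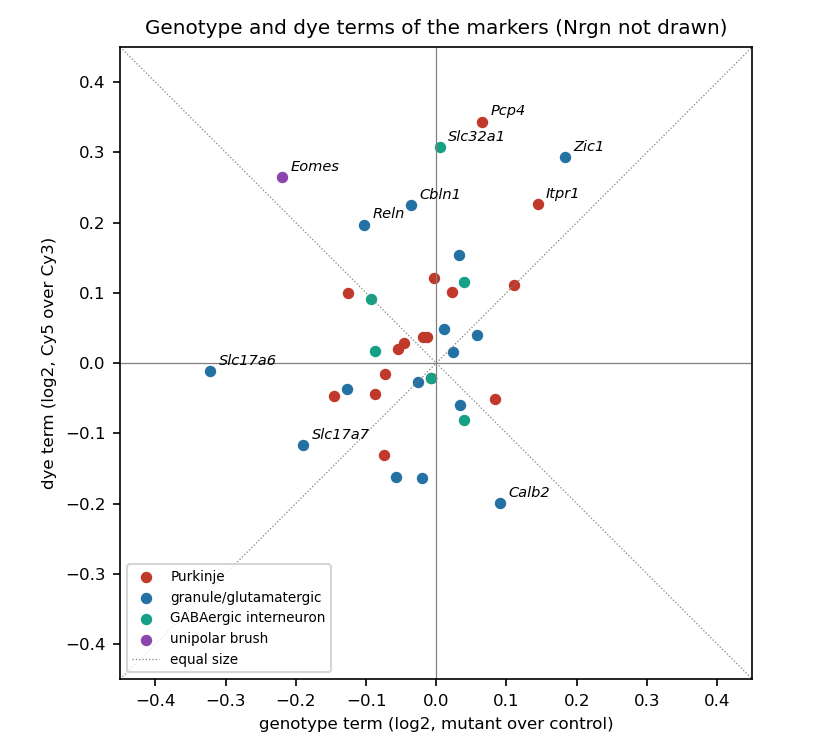
Genotype term (x axis, log2, mutant over control) and dye term (y axis, log2, Cy5 over Cy3) from limma for 38 tested markers, coloured by cell type. Points above or below both dotted diagonals have a larger dye than genotype term, as Pcp4, Slc32a1 and Cbln1 do, and Slc17a6 has the largest genotype term at -0.32. Nrgn, with a dye term of -0.61, is not drawn.

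Unipolar brush cells were represented by Eomes (Tbr2), the transcription factor that marks them in the adult cerebellum. It gave 0.44, -0.39, -0.35 and -0.58 in pairs 1 to 4, with a mean of -0.22 ± 0.45 (adjusted p = 0.757). Pair 1 was higher in the mutant and the other 3 pairs were lower. The limit for a call was 1.02 (2.02-fold), so a measured difference smaller than that would not have been called, and the interval ran from 0.677-fold to 1.09-fold. Fitted with the dye term, which weights both dye orders equally, the ratio was -0.42 with pair 1 left out and -0.02 with pair 3 left out.

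Nrgn (neurogranin), a calmodulin-binding protein of neurons that is best known from forebrain, stood apart. Its log2 ratios were -2.75, 0.90, 1.68 and 0.46 in pairs 1 to 4, so pair 1 was far lower in the mutant and the other 3 were higher. The mean was 0.07 ± 1.95 (adjusted p = 0.988), and a log2 difference of 5.06 (33.4-fold) would have been needed for a call, so these arrays give no usable limit for this gene. Its SD ranked 7 among the 18025 genes. Only 38 genes (0.211 percent) had an SD above 1. The gene was read by 1 probe on the minus strand of chromosome 9, of which the first 30 bases are shown because no other probe checks this value.
Nrgn probe A_51_P171832, chr9:37352101-37352160: tggctggaaggcttttaatctctgcgtgtg

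The channel levels place the spread of Nrgn in single animals of either genotype. On a log2 intensity scale made comparable between arrays, the controls were at 12.2, 9.30, 9.40 and 9.06 in pairs 1 to 4 and the mutants at 9.49, 10.2, 11.1 and 9.52. The control of pair 1 was the highest, followed by the mutant of pair 3, and the ranges of the genotypes overlapped. Without pair 1 the log2 ratio was 1.18 (adjusted p = 0.0403, limma) and without pair 3 it was -1.04 (adjusted p = 0.0499, limma), so the direction of this gene depended on which pair was left out. No other marker was called with any pair left out.

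**Figure D3:**
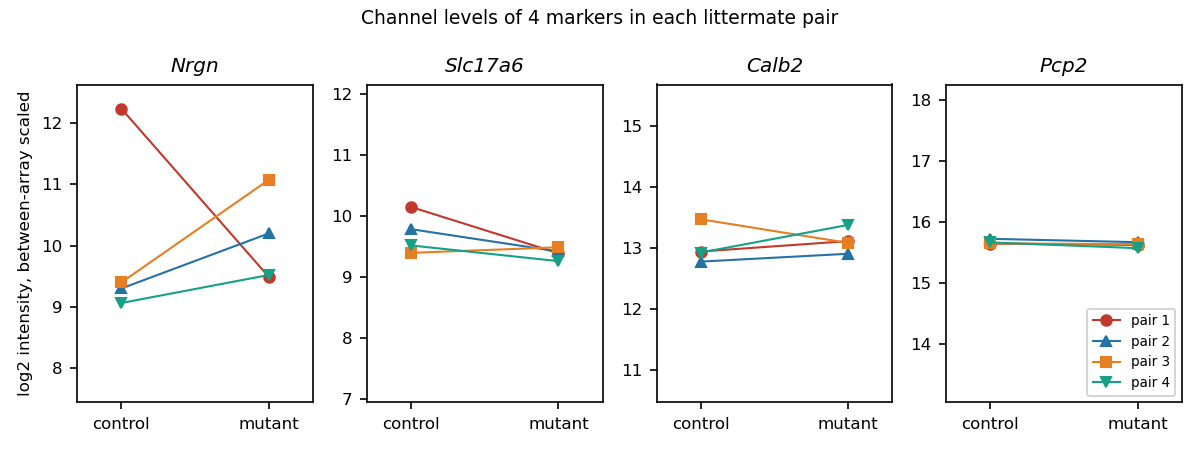
Log2 intensity, scaled between arrays, in the control and mutant channel of each littermate pair (lines) for Nrgn, Slc17a6, Calb2 and Pcp2. Every panel spans the same number of log2 units on its own axis. The control of pair 1 is at 12.2 for Nrgn and at 10.1 for Slc17a6, above the other controls, while Pcp2 lies between 15.6 and 15.7 in all 8 channels.

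Slc17a6 was also highest in the control of pair 1, at 10.1, where the other controls ran from 9.40 to 9.78 and the mutants from 9.26 to 9.49. A list of genes known from midbrain neurons next to the cerebellum was therefore read in the same pair. The list does not separate midbrain from cerebellum: Sst also stands among the further genes of interneurons and unipolar brush cells read below. This list of 12 genes was chosen after these values had been seen, and 8 were tested. All 8 were negative in pair 1, with a median of -1.09, while the medians of pairs 2 to 4 were 0.08, 0.25 and -0.01. The median over all genes in pair 1 was -0.005. Because the list was chosen with pair 1 in view, its values there are no independent check on Nrgn or Slc17a6. Meis2, at -1.40, Lhx9, at -1.37, Sst, at -1.27, Tcf7l2, at -1.19, and Tac1, at -0.98, were the lowest of the list in that pair. Nts, at -0.27, Barhl2, at -0.16, and Pou4f1, at -0.10, were less negative. Tfap2d, Pou4f2, Gata3 and Pax7 did not pass the filter. None of the 8 genes was called over the 4 pairs. The smallest p was that of Nts, which encodes the neuropeptide neurotensin, with a mean of 0.22 ± 0.46 (adjusted p = 0.551), the only one of the 8 with a mean above 0. Of 8 forebrain genes 2 were tested, with medians between -0.11 and 0.10 in the pairs and the smallest p for Emx1 (-0.14 ± 0.18, adjusted p = 0.705), and Tbr1, a defining gene of cortical neurons, did not pass the filter. Of 13 brainstem genes 3 were tested, with medians between -0.09 and 0.09 and the smallest p for Th (-0.06 ± 0.28, adjusted p = 0.937). The filter asks for signal in all 4 mutant or all 4 control channels, so a gene present in a single sample would not pass it. These lists therefore cannot show whether such genes were present in a single sample. The part of midbrain, forebrain or brainstem neurons in the values of Nrgn and Slc17a6 was not tested.

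**Figure D4:**
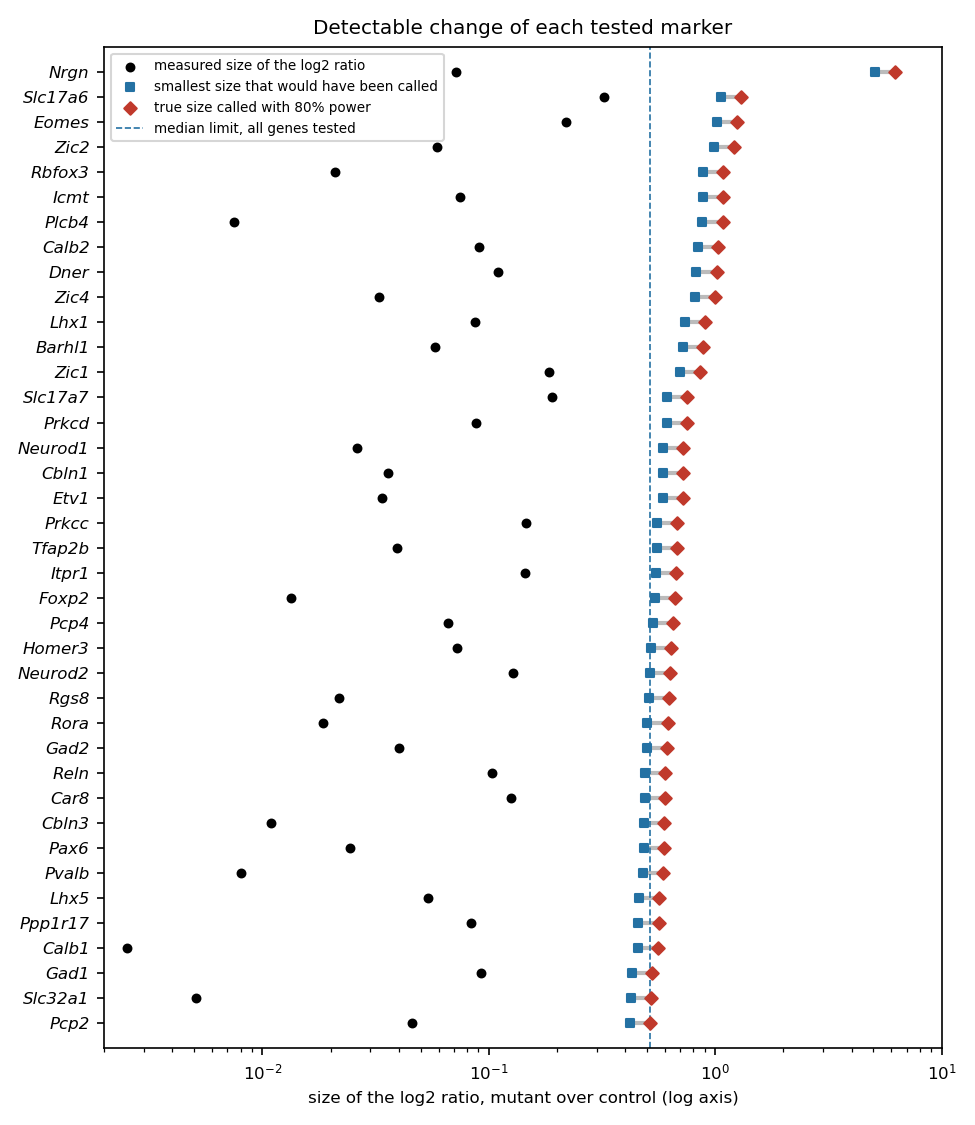
Size of the log2 ratio without sign (x axis, log scale) for each of the 39 tested markers (y axis, ordered by limit). Black points are the measured sizes, blue squares the smallest size that would have been called and red diamonds the true size called with 80 percent power. All measured sizes lie left of their limits, which run from 0.42 for Pcp2 to 5.06 for Nrgn, and the dashed line is the median limit of all genes, 0.52.

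In order of limit, the markers that would have shown the smallest difference after Pcp2 were Slc32a1 and Gad1 at 0.43, Calb1 at 0.45 and Ppp1r17 and Lhx5 at 0.46. At the other end, before Nrgn, stood Slc17a6 at 1.06, Eomes at 1.02, Zic2 at 0.99 and Rbfox3, Icmt and Plcb4 at 0.88. The 6 narrowest limits, all of GABAergic or Purkinje markers, thus lay between 1.34-fold and 1.38-fold, while those of Zic2, Eomes and Slc17a6 were 1.98-fold, 2.02-fold and 2.08-fold. With 80 percent power the true difference had to be 1.43-fold for Pcp2 and 2.45-fold for Slc17a6.

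Further genes of the same neuron types were read beside the markers. An unadjusted p under 0.05 (limma) was found for 2 of 13 tested Purkinje genes and 0 of 12 granule cell genes. The same held for 1 of 10 genes of interneurons and unipolar brush cells, beside 9.39 percent of all genes. Of 13 tested Purkinje genes 0 were called, 3 were above 0 and 10 below, and the median log2 ratio was -0.08. The smallest p was that of Aldoc, an enzyme of Purkinje cell stripes that astroglia also express, at -0.21 ± 0.30 (adjusted p = 0.378). Of 12 further granule cell genes 0 were called, with a median of 0.02 and the smallest p for Fat2, a cadherin of parallel fibres, at -0.09 ± 0.10 (adjusted p = 0.781). Of 10 further genes of interneurons and unipolar brush cells 0 were called, with a median of -0.03 and the smallest p for Sln, a regulator of the calcium pump, at -0.25 ± 0.23 (adjusted p = 0.507).

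General neuronal genes and genes of the response to injury gave no calls either. Of 15 genes found in most neurons 0 were called, 6 were above 0 and 9 below, and the median was -0.02. The smallest p belonged to Nefh, the heavy neurofilament subunit, which was at -0.26, -0.09, -0.38 and -0.28 in pairs 1 to 4 and below 0 in all 4, with a mean of -0.25 ± 0.12 (adjusted p = 0.253). A log2 difference of 0.49 would have been called for it. Among the 15, Nefh alone had an unadjusted p under 0.05 (limma). Of 8 tested injury genes 0 were called, with a median of 0.02 and the smallest p for Jun, a transcription factor of stressed neurons, at 0.11 ± 0.18 (adjusted p = 0.817). Sprr1a and Hrk did not pass the filter.

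The same arrays did register differences in glial genes. Of 12 astroglial genes 2 rose and 3 fell: Gfap, the intermediate filament of astrocytes, rose by a log2 ratio of 1.47 ± 0.35 (adjusted p = 0.0137) and Aldh1l1, a folate enzyme, by 1.5 ± 0.23 (adjusted p = 0.00529). The glutamate transporter Slc1a2 was at -0.57 ± 0.11 (adjusted p = 0.0271), the calcium-binding protein S100b at -0.56 ± 0.09 (adjusted p = 0.0231) and the water channel Aqp4 at -0.54 ± 0.26 (adjusted p = 0.0262), and these 3 fell. Of the 12 astroglial genes 4 were above 0 and 8 below, with a median of -0.40, and 11 had an unadjusted p under 0.05 (limma). Over all genes 1.03 percent were called and 9.39 percent had such an unadjusted p. The median limit of the astroglial list was 0.61, no smaller than that of the neuron markers. Of 11 oligodendrocyte entries 0 were called, though all 11 were below 0 with a median of -0.28 (smallest p for Cldn11, a tight junction protein of myelin, adjusted p = 0.152). The entries Opalin and Tmem10 are 1 gene under its newer and older name, each with its own probe. Of 10 microglial genes 0 were called, with a median of 0.04 and the smallest p for Csf1r, a growth factor receptor of microglia (-0.13 ± 0.16, adjusted p = 0.726). The 9 choroid plexus genes had medians of 0.13, -0.53, 0.39 and 0.56 in pairs 1 to 4, 0 were called (smallest p for Otx2, 0.08 ± 0.20, adjusted p = 0.877), and their part in the neuronal values was not tested.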

How the data were processed

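Each deposited array file gives linear intensities of the spots and their background in both dyes, made by Agilent Feature Extraction 10.5.1.1, per the file headers, with processed intensities and a log10 ratio of Cy5 over Cy3. The deposited value table holds the same log10 ratios turned to mutant over control (largest difference 4.84e-06). Whether a spot was well above background or an outlier was read from the flags the authors deposited. Flags for population outliers of the local background were not used. With limma 3.58.1 in R 4.3.3 (packages data.table, version 1.17.8, and jsonlite, version 2.0.0), mean signals were corrected by normexp (offset 50) and loess within each array, with spots flagged as outliers (143 to 248 an array) left out. A probe was tested if well above background in all 4 mutant or all 4 control channels, with a value on at least 3 arrays, and the brightest probe stood for a gene. Symbols came from the transcript accession for 24844 probes and from the files for 16330. Log2 ratios were fitted with genotype and dye terms over 18025 genes (28 of them measured on 3 arrays). A gene was called at a Benjamini-Hochberg adjusted p under 0.05, where the largest called unadjusted p was 0.000511, with 2 residual and 3.37 prior degrees of freedom. Each array is 1 littermate pair, so mutant and control stay paired in the ratio. The limit for a call is the critical value of limma's moderated statistic times the standard error, and the 80 percent limit uses its noncentral form. Channel levels were scaled between arrays (Aquantile). Exon and UTR positions of probes were not used here.

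The markers and lists were chosen with earlier results of these data known, and the leaving out of outlier spots before normexp follows a choice made after first counts were seen. All markers are named. All pairs are printed for the 4 with the smallest p of each class and for the narrowest and widest limit, and for Calb1, Pcp4 and Calb2, which were added after their values were seen. The pairs of Cbln3 are also printed, outside this rule: its limit of 0.48 equals that of Pax6 only after rounding. Of other lists, values are given only for called genes and the gene with the smallest p. Lhx9, Meis2, Tcf7l2, Sst, Tac1, Barhl2 and Pou4f1 are exceptions, also added after their values were seen. Alternatives covered signal, background, normalization, filter, probe, model and each pair left out. The number of arrays limits precision.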

Additional observations from a re-analysis of the deposited data

Results flagged for a closer look

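Of 42 sets of 4 pair values checked (39 markers and the medians of 3 classes), 1 had a pair far from the rest. Ppp1r17 was at 0.22 in pair 2 and between 0.03 and 0.05 in the other 3, a gap of 0.880 of its whole range, above the 95 percent limit for 4 values. Chance gives such a gap in about 5 percent of such sets.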

How the results depend on the processing

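The 39 markers gave 0 calls under the 12 alternatives that kept all pairs, with the smallest adjusted p from limma between 0.396 and 1.00. This includes the fit with no replicate block, which ignores the pairing on an array and called 162 genes and 0 markers. With 1 pair left out, 0 to 1 markers were called, and the single one was Nrgn: leaving out replicate 1 gave 1.18, with an adjusted p of 0.0403, and leaving out replicate 3 turned it to -1.04, with an adjusted p of 0.0499. Pair 1 and pair 3 held its opposite extremes, and these fits leave 1 residual degree of freedom. Of 624 marker values over the 16 alternatives, 57 differed in sign from the reported mean. Class medians stayed between -0.05 and 0.00 for Purkinje, -0.07 and 0.02 for granule and -0.03 and 0.03 for interneuron markers. With no filter on dim probes the mean of Pax2 was -0.0016, a gene with no tested value otherwise. Over all genes, outlier spots kept in the normexp fit gave 50 higher and 32 lower. The scanner software's processed signals and the deposited value table each gave 53 lower. With 1 pair left out, the counts ran from 44 to 215 higher and from 13 to 127 lower. The cause was not tested.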
